A study of Mus musculus with 12 samples.

Results

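The Clec genes encode C-type lectins and related proteins, and their RNA was measured in sorted leukaemia cells of mice. Every probe set annotated to exactly 1 symbol beginning with Clec was taken, which gave 31 genes of the 22180 genes with a symbol of their own, each with 1 probe set. A further probe set carried the symbols of both Clec9a and Clec1b and was left out. The study used whole-transcript Affymetrix arrays on 12 samples of 6 leukaemias that all carry MLL-AF9, an oncogenic fusion found in human acute leukaemias. Leukaemias 81, 83 and 85 are labelled Dnmt3b-knockin and as overexpressing Dnmt3b, a de novo DNA methyltransferase, and leukaemias 73, 75 and 79 are labelled WT. Cells of each leukaemia were sorted on c-kit (Kit), which binds stem cell factor on progenitors, and both fractions were profiled. The 4 groups, each of 3 arrays, were Dnmt3b-knockin c-kit-positive and c-kit-negative and WT c-kit-positive and c-kit-negative. The labels name bone marrow in the titles and spleen as the source. Strain, age and sex, how Dnmt3b was driven, and whether each number is a separate mouse, are not given in the sources used here. If the numbers share a donor, the p-values measure only the spread between these samples.

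C-type lectin receptors bind sugars, lipids or proteins of microbes and of damaged or neighbouring cells. Activating members signal through the kinase Syk and the adaptor Card9, either by a tyrosine motif of their own or through the adaptors FcR gamma (Fcer1g) and DAP12 (Tyrobp). Inhibitory members carry a tyrosine motif that recruits phosphatases. In blood, many of them are found on myeloid cells, and others of the family are ligands of natural killer (NK) cell receptors, endothelial or liver lectins, or secreted proteins.

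The table held log2 values from RMA, a background correction, quantile normalization and summary of the probes of a set. A level is comparable between arrays for a probe set but not between probe sets, since probes differ in brightness. Array medians were 5.56 to 5.71, and no pair of arrays correlated below 0.928. Dnmt3b did not follow its label. In c-kit-positive cells, Dnmt3b had log2 values of 6.49, 6.38 and 6.33 in leukaemias 81, 83 and 85, against 6.66, 6.41 and 6.33 in leukaemias 73, 75 and 79. In c-kit-negative cells they were 6.16, 6.33 and 6.64 in 81, 83 and 85, against 6.25, 6.38 and 6.10 in 73, 75 and 79. The groups overlapped in both fractions, and the difference over both was 0.03 (adjusted p = 0.964 with limma). The genotype names below therefore state labels only. Kit followed the sort. Kit had log2 values of 8.15, 7.88 and 7.98 on the c-kit-positive arrays of leukaemias 81, 83 and 85, against 6.47, 6.87 and 6.75 on their c-kit-negative arrays. Kit in leukaemias 73, 75 and 79 had 8.01, 8.13 and 8.34, against 6.69, 6.72 and 6.57. All 7 markers listed for leukaemic myeloid cells and progenitors, Ptprc and Spi1 among them, had means above the table median.

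Of the 31 Clec probe sets, 15 (48.4%) had a mean over the 12 arrays above 5.63, the median of all values of the table, beside 56.4% of all genes. They were Clec12a, Clec4b2, Clec2i, Clec4e, Clec4a2, Clec7a, Clec16a, Clec5a, Clec18a, Clec2m, Clec4f, Clec2d, Clec4g, Clec3b and Clec4a3. Clec4a3 lay just inside that limit at 5.68, and Clec14a, an endothelial gene, just outside at 5.49. Testing required more than 4.61 (the lower quartile of all values) on 3 or more arrays, which 24 Clec genes did (77.4%, beside 86.3% of all genes). The 7 that did not were Clec2l, Clec2e, Clec2h, Clec1b, Clec3a, Clec10a and Clec4b1, with means of 3.20 for Clec4b1 to 4.51 for Clec2l. Clec1b encodes the platelet receptor of podoplanin and Clec10a a galactose-binding lectin of macrophages. Array to array, the probe sets differed in how far they moved. Clec1a, a receptor of fungal melanin, stayed within 5.24 to 5.41, whereas Clec4e ranged from 6.51 to 9.52, Clec4b2 from 7.46 to 9.98, Clec4a3 from 4.88 to 7.12 and Clec7a from 6.36 to 8.57.

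**Figure D1:**
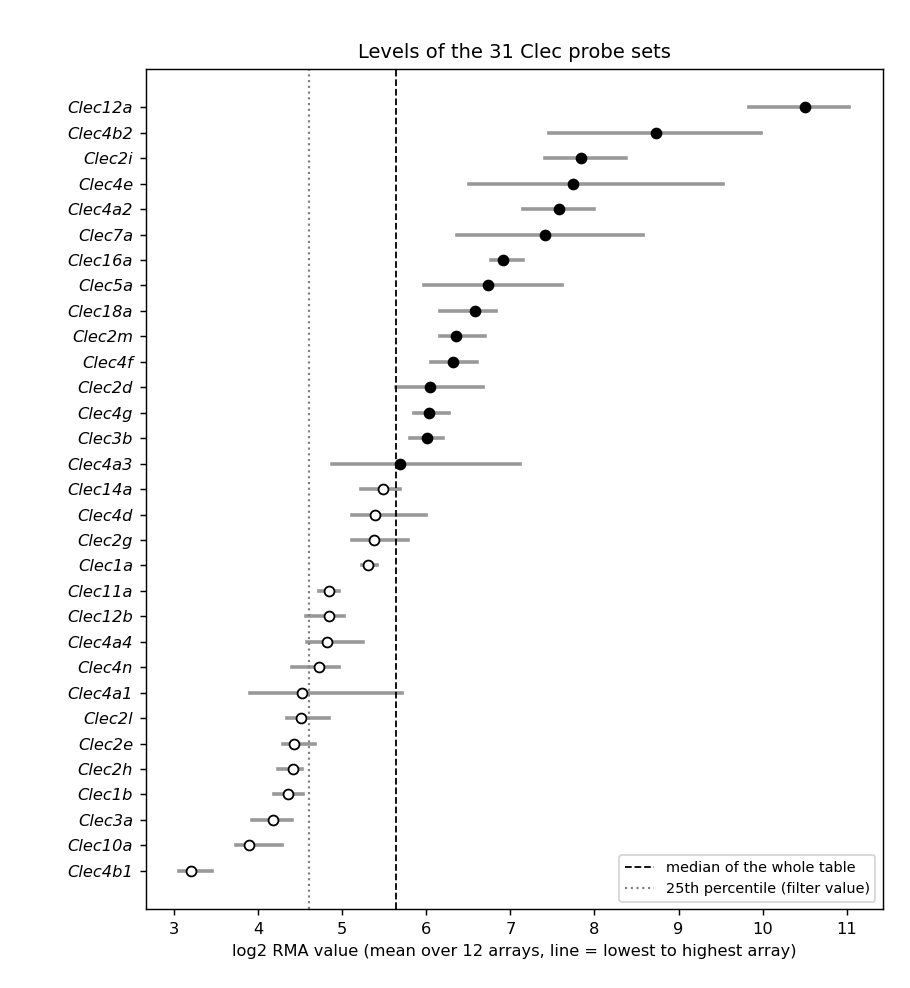
Mean log2 RMA value over the 12 arrays of each of the 31 Clec probe sets (points, filled where the mean is above the median of the table) and the range from the lowest to the highest array (lines). The 15 filled points lie to the right of the dashed line at 5.63, and Clec4e, Clec4b2, Clec4a3 and Clec7a have the long lines. Values of different probe sets are not comparable as amounts of RNA.

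Along the c-kit sort, Clec genes went in opposite directions. Over both genotypes, Clec12a and Clec4b2 were higher in c-kit-positive cells, and Clec4a3, Clec4a1, Clec4e and Clec7a were lower. These 6 of the 24 tested genes (25%) passed an adjusted p of 0.05 with limma, 2 higher and 4 lower, where 8.25% of all 19152 genes tested passed, 5.84% higher and 2.41% lower. Clec4a1 is counted among the 4, but it could be tested only because it is high on c-kit-negative arrays. The median difference of the 24 was -0.07 on the log2 scale, beside -0.03 for all genes. The other 18 did not pass. Beside 23.4% of all genes, 9 of the 24 (37.5%) had an unadjusted p under 0.05. With no filter, all 31 were tested and 5 passed, Clec7a not among them.

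Clec12a encodes an inhibitory receptor of myeloid cells that carries a tyrosine motif recruiting phosphatases, known in human acute myeloid leukaemia as a surface marker (CLL-1). Clec12a had log2 values of 11.03, 10.75 and 11.03 on the c-kit-positive arrays of leukaemias 81, 83 and 85, against 10.46, 10.09 and 10.32 on their c-kit-negative arrays. Clec12a in leukaemias 73, 75 and 79 had 10.85, 10.81 and 10.78, against 10.01, 10.09 and 9.84. All 6 positive arrays lay above all 6 negative ones. The difference was 0.74 (SE 0.09, 1.67-fold, adjusted p = 0.00034 with limma, n = 6 arrays per fraction), and it was positive in each leukaemia, at 0.57 to 0.95.

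Clec4b2 encodes an activating receptor, related to the dendritic cell immunoactivating receptor DCAR and coupled to FcR gamma. Clec4b2 had log2 values of 9.98, 9.88 and 9.43 on the c-kit-positive arrays of leukaemias 81, 83 and 85, against 9.01, 8.91 and 8.41 on their c-kit-negative arrays. Clec4b2 in leukaemias 73, 75 and 79 had 9.33, 8.65 and 8.44, against 7.46, 7.78 and 7.47. Within each genotype the fractions did not overlap, but the negative arrays of leukaemias 81 and 83 lay among the positive values of 73, 75 and 79. That of leukaemia 85 lay just below them. The difference was 1.11 (SE 0.16, 2.16-fold, adjusted p = 0.0014 with limma). Leukaemia 73 had the largest step of the 6, at 1.87, and without it the difference was 0.96 (adjusted p = 0.0117). The other 5 leukaemias had 0.88 to 1.02.

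Clec4a3 belongs to the genes of the dendritic cell immunoreceptor (DCIR) type. Clec4a3 had log2 values of 5.07, 4.88 and 5.09 on the c-kit-positive arrays of leukaemias 81, 83 and 85, against 7.12, 7.0 and 6.54 on their c-kit-negative arrays. Clec4a3 in leukaemias 73, 75 and 79 had 5.02, 4.99 and 5.06, against 5.84, 5.84 and 5.76. The positive arrays of both genotypes lay together, within 4.88 to 5.09, and every negative array was higher. The difference was -1.33 (SE 0.09, 2.52-fold lower, adjusted p = 1.13e-05 with limma), and it was the Clec gene with the smallest p in this comparison. Its neighbour and paralogue Clec4a1 went the same way. Clec4a1 had log2 values of 4.05, 4.0 and 4.10 on the c-kit-positive arrays of leukaemias 81, 83 and 85, against 5.14, 5.71 and 5.18 on their c-kit-negative arrays. Clec4a1 in leukaemias 73, 75 and 79 had 4.09, 3.90 and 4.20, against 4.58, 4.88 and 4.41. The 6 positive arrays all lay below the filter value of 4.61, and Clec4a1 passed the filter through 4 negative arrays alone, so that it could be tested only because it is high there. It was 1.9-fold lower in c-kit-positive cells (log2 -0.93, SE 0.11, adjusted p = 0.000455 with limma, and 0.000519 without the filter). How far the probes of the paralogues share RNA was not tested.

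Clec4e encodes Mincle, an FcR gamma-coupled receptor of mycobacterial glycolipids and of dead cells. Clec4e had log2 values of 6.51, 7.0 and 6.74 on the c-kit-positive arrays of leukaemias 81, 83 and 85, against 8.01, 9.52 and 8.25 on their c-kit-negative arrays. Clec4e in leukaemias 73, 75 and 79 had 6.68, 7.10 and 7.90, against 8.51, 8.78 and 7.91. Every negative array was above every positive one, but leukaemia 79 had nearly equal values in both fractions. The difference was -1.51 (SE 0.26, 2.85-fold lower, adjusted p = 0.00455 with limma). Clec7a encodes Dectin-1, the receptor of fungal beta-glucan that signals through Syk and Card9. Clec7a had log2 values of 6.67, 6.87 and 6.36 on the c-kit-positive arrays of leukaemias 81, 83 and 85, against 8.57, 7.96 and 6.74 on their c-kit-negative arrays. Clec7a in leukaemias 73, 75 and 79 had 6.64, 7.18 and 7.70, against 8.34, 8.48 and 7.39. In leukaemia 79 the positive array was the higher one, and the c-kit-negative arrays spread widely. Clec7a was 2.01-fold lower (log2 -1.01, SE 0.29, adjusted p = 0.048 with limma), close to the threshold. Its call was lost without leukaemia 73, 75, 81 or 83 (adjusted p = 0.219, 0.203, 0.0886 and 0.151), without the filter (0.0556) and with arrays centred on their medians (0.082). The other 5 passed whichever leukaemia was left out, with adjusted p of 0.000574 to 0.0069 for Clec12a, 0.00188 to 0.0138 for Clec4b2, 5.96e-06 to 0.000827 for Clec4a3, 0.00086 to 0.00784 for Clec4a1 and 0.00262 to 0.0451 for Clec4e. As given above, Clec4a1 could be tested only because it is high on c-kit-negative arrays. In bulk samples such as these, fewer cells of a type and less RNA per cell cannot be told apart.

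**Figure D2:**
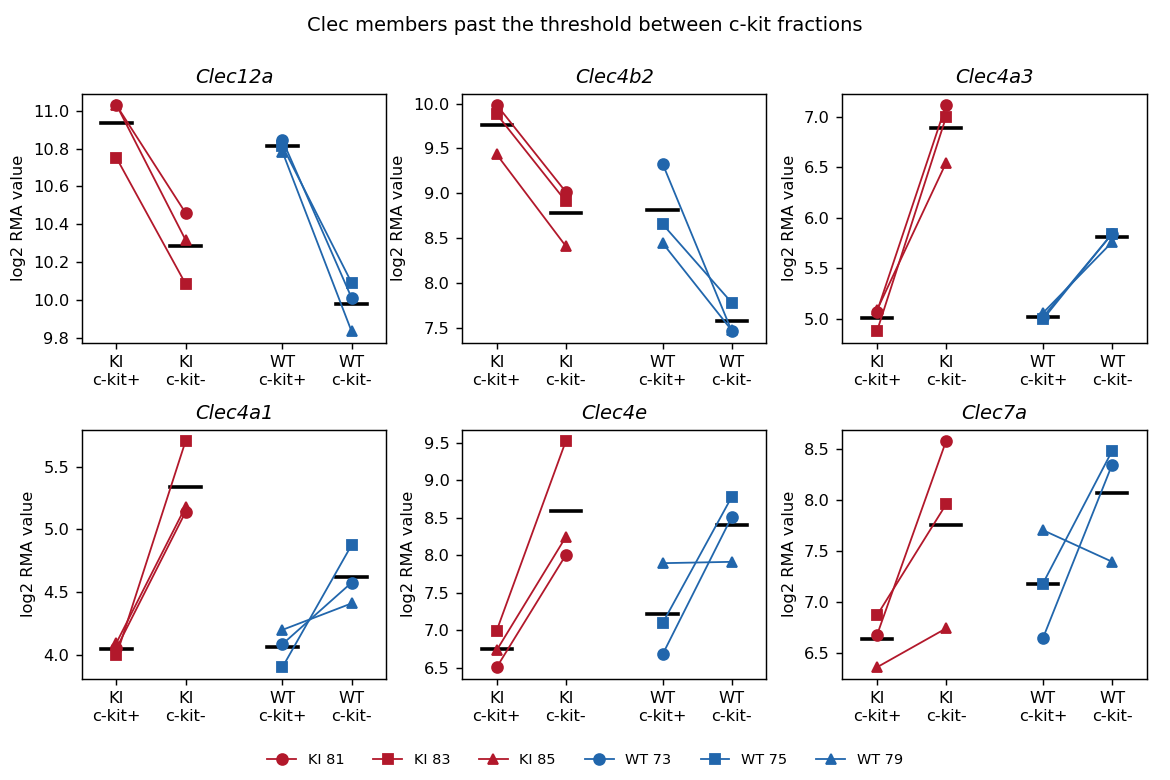
Log2 RMA values of the 6 Clec genes past the threshold between c-kit fractions, on each of the 12 arrays. Lines join both fractions of a leukaemia, black bars are group means (n = 3 arrays), red is labelled Dnmt3b-knockin (KI) and blue WT, and each panel has its own axis. Clec12a and Clec4b2 slope down to the c-kit-negative arrays in all 6 leukaemias, Clec4a3 and Clec4a1 slope up, and leukaemia 79 is flat for Clec4e and turned for Clec7a.

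Marker genes of myeloid cells moved along the sort beside these Clec genes. Of all genes tested, 5.84% were higher in c-kit-positive cells over both genotypes and 2.41% lower. Of 11 tested monocyte and macrophage markers, 8 were lower in c-kit-positive cells over both genotypes, Csf1r and Cd14 among them, and 0 were higher (median -0.48). Their mean log2 value on c-kit-positive arrays was 7.18 to 7.30 in the Dnmt3b-labelled and 7.08 to 7.38 in the WT-labelled leukaemias, against 8.0 to 8.44 and 7.83 to 8.24 on c-kit-negative arrays. Of 11 late neutrophil markers, such as Ltf and Cxcr2, 7 were lower and 0 higher (median -1.04). All 6 primary granule markers, such as Mpo and Elane, were higher (median 1.70), with means of 10.13 to 10.93 and 9.74 to 11.11 on c-kit-positive arrays, against 8.24 to 9.52 and 8.19 to 9.38 on c-kit-negative arrays. Of 10 tested dendritic cell markers 0 passed with limma and 3 had an unadjusted p under 0.05 (median -0.18). Among markers of T and NK, B, erythroid, platelet, and eosinophil, basophil and mast cells, Ighm was lower and Mcpt8 higher, and no other passed. Of the myeloid and dendritic cell lists, Bst2 of the dendritic cell markers was the 1 gene at or below the filter value on all arrays. The part of these markers in the Clec differences was not tested.

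Clec12a and Clec4b2 were the 2 higher genes with the smallest p over both genotypes, and Clec4a3 and Clec4a1 the 2 lower ones. The 250 bases before their transcription starts are shown, 5′ to 3′, from RefSeq on GRCm38.p6. The genes were chosen by direction, so that each pair going the same way is no result. Capitals mark GAGGAA (the core of sites of PU.1, a myeloid transcription factor), TTGCNNAA (C/EBP factors), TGTGGT (RUNX factors) and TGANTCA (AP-1 factors), searched on both strands. No match overlapped another.
Clec12a (chr6:129349994-129350243, plus strand): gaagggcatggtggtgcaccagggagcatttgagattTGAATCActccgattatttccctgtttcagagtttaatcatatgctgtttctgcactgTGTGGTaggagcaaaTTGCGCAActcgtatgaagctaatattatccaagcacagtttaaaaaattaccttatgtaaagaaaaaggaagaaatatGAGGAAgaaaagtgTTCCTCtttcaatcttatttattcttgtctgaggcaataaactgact
Clec4b2 (chr6:123172773-123173022, plus strand): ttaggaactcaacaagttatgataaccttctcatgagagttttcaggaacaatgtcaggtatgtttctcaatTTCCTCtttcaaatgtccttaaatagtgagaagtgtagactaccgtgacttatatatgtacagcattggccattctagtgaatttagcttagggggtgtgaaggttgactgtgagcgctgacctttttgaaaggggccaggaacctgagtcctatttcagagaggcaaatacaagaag
Clec4a3 (chr6:122952265-122952514, plus strand): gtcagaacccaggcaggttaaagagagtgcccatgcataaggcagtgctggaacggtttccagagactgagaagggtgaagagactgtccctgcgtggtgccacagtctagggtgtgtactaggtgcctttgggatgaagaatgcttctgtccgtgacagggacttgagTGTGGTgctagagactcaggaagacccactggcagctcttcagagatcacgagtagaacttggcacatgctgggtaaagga
Clec4a1 (chr6:122921598-122921847, plus strand): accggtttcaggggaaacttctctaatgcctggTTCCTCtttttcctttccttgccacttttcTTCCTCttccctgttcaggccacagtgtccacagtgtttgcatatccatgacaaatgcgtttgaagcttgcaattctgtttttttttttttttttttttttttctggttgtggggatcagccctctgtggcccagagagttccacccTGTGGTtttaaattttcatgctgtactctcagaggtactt
The Clec12a window held each of the 4 motifs, with GAGGAA at 2 places, TTGCNNAA 140 bases before the start and TGTGGT 155 bases before it. The Clec4b2 window held GAGGAA once, 178 bases before the start. The Clec4a3 window, the first of 2 listed for that gene, held TGTGGT alone, 81 bases before the start, and the Clec4a1 window held GAGGAA at 2 places and TGTGGT 40 bases before the start. Among all 32851 windows of this length, 23.3% held GAGGAA, 9.56% TTGCNNAA, 14% TGTGGT and 6.75% TGANTCA. A window was listed for 25 of the 31 Clec genes, of which 13 held GAGGAA, 4 TTGCNNAA, 5 TGTGGT and 5 TGANTCA. Only the first window of each Clec gene was counted, whereas the shares count every listed window. The counts and the shares are therefore not on the same basis. A match is only a run of letters, and no binding was measured.

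Position gave another view of the same differences. Of the 31 Clec genes, 23 lie on chromosome 6 in RefSeq, and 9 of them are direct neighbours there, in the order Clec4a1, Clec4a3, Clec4a4, Clec4b1, Clec4a2, Clec4b2, Clec4n, Clec4d and Clec4e. At one end Clec4a1 and Clec4a3 were lower in c-kit-positive cells, in the middle Clec4b2 was higher, and at the other end Clec4e was lower. Of the genes between, Clec4a4, which encodes the DCIR2 receptor of dendritic cells, had 0.00 (95% confidence interval -0.25 to 0.24), and Clec4a2, which encodes the inhibitory receptor DCIR, had 0.30 (0.03 to 0.58, adjusted p = 0.173 with limma). Clec4n, the Dectin-2 gene, had -0.26 (adjusted p = 0.0867 with limma) and Clec4d, which encodes a partner of Mincle, -0.32 (adjusted p = 0.0537 with limma). Farther along the chromosome, Clec12a was higher and Clec7a lower, with Clec12b and Clec1a between them at -0.02 and -0.08. No test of position was made.

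**Figure D3:**
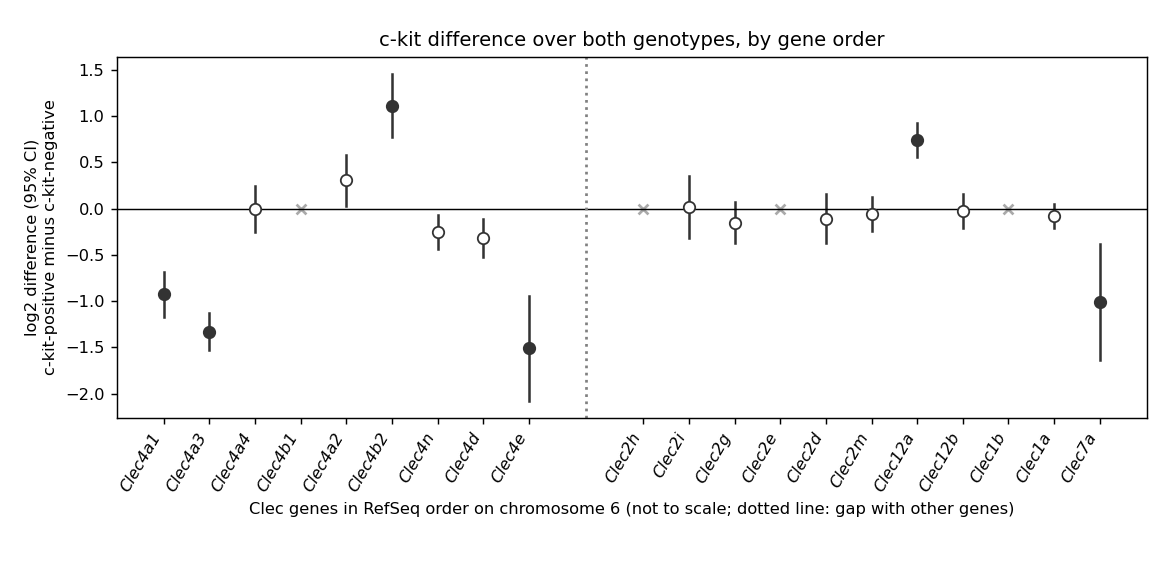
Log2 difference of c-kit-positive minus c-kit-negative cells over both genotypes, with 95% confidence intervals, for Clec genes in their RefSeq order on chromosome 6 (not to scale). Filled points passed an adjusted p of 0.05, open points did not, and grey crosses are genes that did not pass the filter and were not tested. Filled points lie on both sides of 0 on both sides of the dotted line, which marks a gap with other genes.

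The leukaemia number pairs both arrays of a leukaemia. With it as a block, Clec4a2 and Clec4d passed too over both genotypes, Clec4a2 higher and Clec4d lower (adjusted p = 0.0218 and 0.0274 with limma). That fit called 19.6% of all genes, against 8.25% without the block, so that more calls are not particular to the Clec genes. Clec4a2 had log2 values of 7.99, 7.41 and 7.99 on the c-kit-positive arrays of leukaemias 81, 83 and 85, against 7.67, 7.14 and 7.62 on their c-kit-negative arrays. Clec4a2 in leukaemias 73, 75 and 79 had 7.95, 7.55 and 7.54, against 7.29, 7.46 and 7.40. The fractions overlapped over both genotypes and within the Dnmt3b-labelled leukaemias, but not within the WT-labelled ones. The positive array was higher in each of the 6 leukaemias, by 0.09 to 0.66. Clec4d was lower in the positive array of each of the 6 leukaemias, with differences of -0.06 in leukaemia 75 and -0.88 in leukaemia 83 at the ends, and its values on all arrays were 5.12 to 6.0.

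Within the leukaemias labelled Dnmt3b-knockin, 5 of the 24 tested genes passed (1.88% of all genes did), 2 higher and 3 lower in c-kit-positive cells, beside 1.13% and 0.752% of all genes. Clec4a3 was 3.67-fold lower (log2 -1.87, adjusted p = 4.84e-05 with limma), Clec4e 3.59-fold lower (adjusted p = 0.0233) and Clec4a1 2.45-fold lower (adjusted p = 0.00126). Clec4b2 was 1.98-fold higher (adjusted p = 0.0433) and Clec12a 1.57-fold higher (adjusted p = 0.014). Clec4a1 is counted among the 5, but it could be tested only because it is high on c-kit-negative arrays. Clec4a3 and Clec4a1 still passed whichever leukaemia was left out. The others lost theirs with limma, Clec4e without leukaemia 75, 83 or 85 (adjusted p = 0.056, 0.145 and 0.0655), Clec4b2 without 75, 81, 83 or 85 (0.0877, 0.0924, 0.279 and 0.0706) and Clec12a without 83 or 85 (0.0813 and 0.0736). With the leukaemia as a block, which called 8.7% of all genes, Clec4d passed as well (log2 -0.46, adjusted p = 0.0455 with limma).

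Within the leukaemias labelled WT, 3 of the 24 passed (0.768% of all genes did), 2 higher and 1 lower, beside 0.397% and 0.371% of all genes. In c-kit-positive cells Clec12a had 1.78-fold higher levels (log2 0.83, adjusted p = 0.00737 with limma), Clec4b2 2.36-fold higher (adjusted p = 0.0309) and Clec4a3 1.73-fold lower (log2 -0.79, adjusted p = 0.0181). Clec4e had -1.18 (95% confidence interval -1.98 to -0.37, adjusted p = 0.149), Clec7a -0.90 (-1.78 to -0.01) and Clec4a1 -0.56 (adjusted p = 0.111). With the leukaemia as a block, Clec4e (adjusted p = 0.0266 with limma) and Clec4a1 (0.0389) passed, which made 5, in a fit that called 11% of all genes. Here too, Clec4a1 could be tested only because it is high on c-kit-negative arrays. Without leukaemia 73, 75 or 79, none of the 3 calls held, with adjusted p of 0.159, 0.0962 and 0.0574 for Clec12a, 0.292, 0.184 and 0.0574 for Clec4b2 and 0.238, 0.289 and 0.0743 for Clec4a3. Clec4b2 lost its call without leukaemia 83 too (0.0754), and Clec4a3 with arrays centred on their medians (0.0565).

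**Figure D4:**
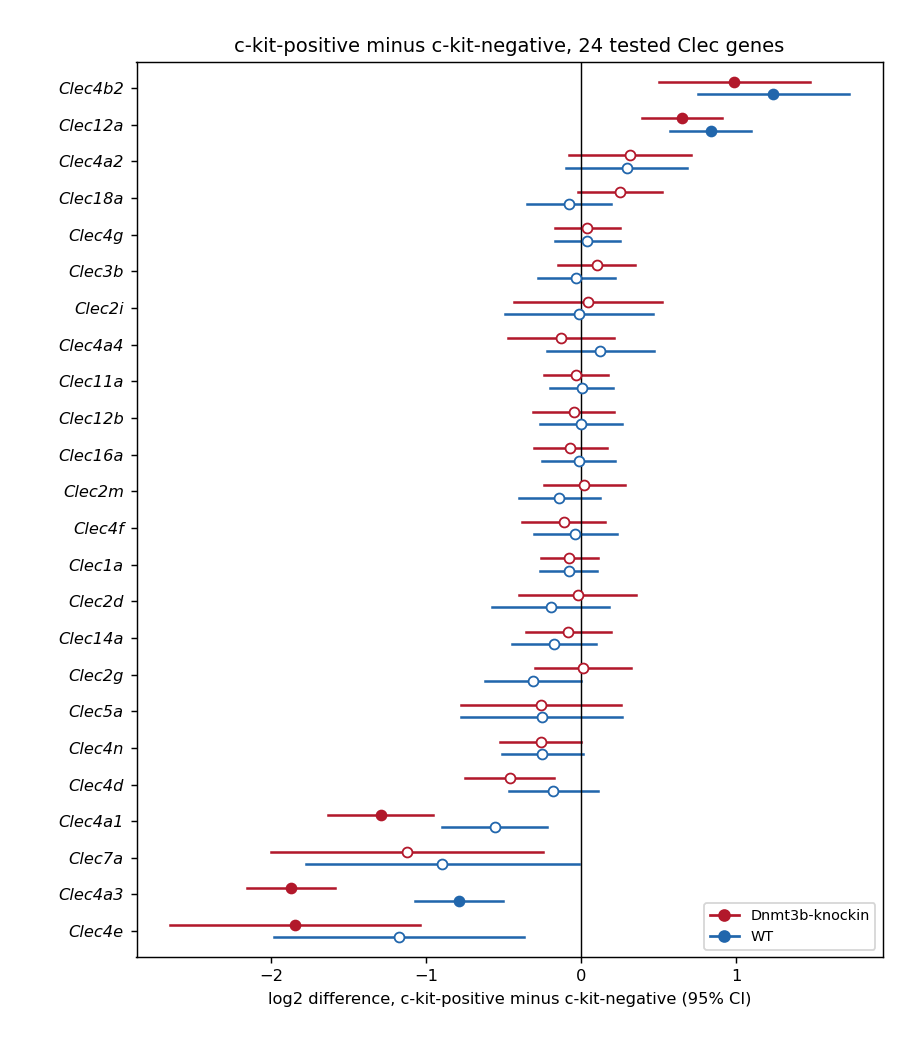
Log2 difference of c-kit-positive minus c-kit-negative cells for the 24 tested Clec genes, in the leukaemias labelled Dnmt3b-knockin (red, upper line of each gene) and WT (blue, lower line). Bars are 95% confidence intervals of the limma fit (3 arrays against 3), and filled points passed an adjusted p of 0.05. Clec4b2 and Clec12a lie to the right of 0 in both genotypes, and Clec4e, Clec4a3, Clec7a and Clec4a1 to the left.

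By role, the activating receptors were mixed along the sort. Of 8 in that group 6 were tested, of which Clec4b2 was higher, Clec4e and Clec7a were lower, and 3 did not pass. Clec5a, a DAP12-coupled receptor of myeloid cells that binds dengue virus in human, was among these 3, at -0.26 (95% confidence interval -0.62 to 0.11). Of the 6 DCIR-type and other inhibitory receptor genes, all tested, Clec12a was higher, Clec4a3 and Clec4a1 were lower, and 3 did not pass. Clec4a3 and Clec4a1 stand in that group as DCIR paralogues, and whether their mouse proteins carry the inhibitory tyrosine motif was not examined, so that the count does not show inhibitory receptors going both ways. None of the 5 tested genes of the NK receptor ligands and related Clec2 and Clec1 genes passed, with a median of -0.08, and none of the 4 tested lectins of other cell types or of the 3 tested secreted or intracellular members. The unadjusted p with limma was under 0.05 for 9 of the 24 genes, all of them in the first 2 groups.

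Of the NK receptor ligands and related genes, Clec2i, Clec2d and Clec2m were above the table median. Clec2i encodes Clr-g, a ligand of Nkrp1 receptors. Clec2i had log2 values of 7.51, 8.18 and 7.68 on the c-kit-positive arrays of leukaemias 81, 83 and 85, against 7.80, 8.02 and 7.42 on their c-kit-negative arrays. Clec2i in leukaemias 73, 75 and 79 had 7.76, 7.57 and 8.38, against 7.87, 8.08 and 7.80. Its groups overlapped throughout, and leukaemias 75 and 79 went opposite ways. Clec2d encodes Clr-b, the ligand of the inhibitory receptor Nkrp1b. Clec2d had log2 values of 6.48, 6.08 and 6.07 on the c-kit-positive arrays of leukaemias 81, 83 and 85, against 6.67, 6.10 and 5.92 on their c-kit-negative arrays. Clec2d in leukaemias 73, 75 and 79 had 5.73, 5.64 and 5.90, against 6.06, 5.96 and 5.84. Leukaemia 81 gave its high values in both fractions. Clec2m had log2 values of 6.17, 6.37 and 6.42 on the c-kit-positive arrays of leukaemias 81, 83 and 85, against 6.28, 6.23 and 6.39 on their c-kit-negative arrays. Clec2m in leukaemias 73, 75 and 79 had 6.39, 6.41 and 6.20, against 6.45, 6.69 and 6.28. These overlapped as well, with a difference between fractions of -0.06 over both genotypes.

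The lectins of other cell types and the secreted or intracellular members differed little between fractions. Clec4f is a lectin of Kupffer cells. Clec4f had log2 values of 6.31, 6.18 and 6.55 on the c-kit-positive arrays of leukaemias 81, 83 and 85, against 6.36, 6.42 and 6.60 on their c-kit-negative arrays. Clec4f in leukaemias 73, 75 and 79 had 6.05, 6.37 and 6.21, against 6.10, 6.31 and 6.33. Clec4g is a lectin of liver sinusoidal cells. Clec4g had log2 values of 6.15, 6.04 and 6.27 on the c-kit-positive arrays of leukaemias 81, 83 and 85, against 6.04, 6.09 and 6.22 on their c-kit-negative arrays. Clec4g in leukaemias 73, 75 and 79 had 6.01, 5.85 and 6.0, against 5.89, 5.94 and 5.90. In both fractions its values in leukaemias 81, 83 and 85 lay above those in 73, 75 and 79, by 0.20 over both (adjusted p = 0.57 with limma), and for Clec4f this was so on c-kit-negative arrays alone (0.21, adjusted p = 0.886). How many of all genes separate by genotype label in this way was not counted, here or below. Clec18a had log2 values of 6.71, 6.62 and 6.83 on the c-kit-positive arrays of leukaemias 81, 83 and 85, against 6.16, 6.57 and 6.66 on their c-kit-negative arrays. Clec18a in leukaemias 73, 75 and 79 had 6.58, 6.55 and 6.48, against 6.61, 6.71 and 6.53. Its lowest value was that of the negative array of leukaemia 81, and on c-kit-positive arrays leukaemias 81, 83 and 85 lay above 73, 75 and 79. Clec3b encodes tetranectin, a secreted protein that binds plasminogen. Clec3b had log2 values of 5.93, 6.20 and 6.08 on the c-kit-positive arrays of leukaemias 81, 83 and 85, against 5.85, 5.96 and 6.09 on their c-kit-negative arrays. Clec3b in leukaemias 73, 75 and 79 had 5.80, 6.0 and 6.12, against 6.09, 5.92 and 6.01. All groups of Clec3b overlapped. Clec16a encodes an intracellular protein of endosomes and mitophagy. Clec16a had log2 values of 6.94, 6.94 and 6.77 on the c-kit-positive arrays of leukaemias 81, 83 and 85, against 7.15, 6.94 and 6.78 on their c-kit-negative arrays. Clec16a in leukaemias 73, 75 and 79 had 6.94, 6.79 and 6.97, against 6.93, 6.91 and 6.91. Its groups overlapped too. The 95% confidence intervals of the c-kit difference over both genotypes were -0.27 to 0.12 for Clec4f, -0.11 to 0.19 for Clec4g, -0.11 to 0.28 for Clec18a, -0.14 to 0.21 for Clec3b and -0.21 to 0.12 for Clec16a. Clec11a, the gene of a stem cell growth factor, was among the genes below the table median, at 4.72 to 4.96 over all arrays. Of 6 markers of endothelial and Kupffer cells, 2 had means above the table median, and 0 passed between fractions over both genotypes with limma, with 0 at an unadjusted p under 0.05 (median -0.06).

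Between the genotype labels, Clec4a3 was the 1 Clec gene that passed, and it did so in c-kit-negative cells. There it was higher in the leukaemias labelled Dnmt3b-knockin, at 6.88 ± 0.30, against 5.81 ± 0.05 in those labelled WT (SD, n = 3 arrays each), with values as given above that did not overlap. The difference was 1.07 (SE 0.13, 2.1-fold, adjusted p = 0.00862 with limma), where 0.0627% of all genes passed, 0.0574% as higher. In c-kit-positive cells it was 5.01 ± 0.12, against 5.02 ± 0.03, a difference of -0.01 (95% confidence interval -0.30 to 0.27). All its c-kit-positive values lay below the table median of 5.63, though above the filter value of 4.61. Whether so low a level hides a difference was not tested. The call was lost without leukaemia 73, 75, 79 or 83 (adjusted p = 0.103, 0.0948, 0.0623 and 0.0991 with limma) and in a fit to the 6 c-kit-negative arrays alone (0.222). It was kept without 81 (0.0282) and without 85 (0.000636). Clec4a1 in the same cells had 0.72 (adjusted p = 0.319 with limma), again with groups that did not overlap. It passed the filter only through the c-kit-negative arrays of leukaemias 75, 81, 83 and 85. In c-kit-positive cells Clec4a1 had -0.01, but all its values there lay below the filter value. Whether the labels differ for Clec4a1 in those cells can therefore not be told.

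Late neutrophil markers differed between the labels in both fractions. Of 11, 3 passed as higher in the Dnmt3b-labelled leukaemias on c-kit-negative arrays (Cxcr2, Ltf and Ly6g) and 0 as lower (median 0.80). On c-kit-positive arrays 3 passed as higher (Ltf, Ly6g and S100a8) and 0 as lower (median 1.11). Of all genes, 0.0627% and 0.141% passed in these comparisons. The mean log2 value of the 11 markers on c-kit-negative arrays was 10.08 to 10.45 in the Dnmt3b-labelled leukaemias, against 8.71 to 9.61 in those labelled WT. On c-kit-positive arrays it was 8.69 to 9.04, against 7.49 to 8.19. Of the 11 monocyte and macrophage markers 0 passed on c-kit-negative arrays with limma, with 2 at an unadjusted p under 0.05 (median 0.29). On c-kit-positive arrays 1 passed, Lyz2, as higher (median of the list -0.16). The part of these markers in the differences of Clec4a3 and Clec4a1 was not tested.

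Clec4b2 and Clec5a had larger values in the Dnmt3b-labelled leukaemias in both fractions without passing. For Clec4b2, whose values are given above, all 3 values of leukaemias 81, 83 and 85 lay above those of 73, 75 and 79 in each fraction. The difference was 0.96 in c-kit-positive cells (adjusted p = 0.147 with limma), 1.21 in c-kit-negative cells (0.139) and 1.08 over both (0.143, n = 3 leukaemias per group). With the leukaemia as a random block, Clec4b2 passed over both fractions (adjusted p = 0.0327 with limma), as 0.178% of all genes did. Without leukaemia 85 it passed over both fractions (0.0267) and in c-kit-negative cells (0.0317). The share of all genes that passed without leukaemia 85 was not counted. In c-kit-positive cells, Clec5a had log2 values of 7.50, 6.86 and 6.51 in leukaemias 81, 83 and 85, against 6.41, 6.40 and 5.97 in leukaemias 73, 75 and 79. In c-kit-negative cells they were 7.18, 7.61 and 6.85 in 81, 83 and 85, against 6.32, 6.49 and 6.74 in 73, 75 and 79. The groups did not overlap in either fraction. Groups of 3 can separate at a small difference too, as those of Clec1a did in c-kit-positive cells (0.04). The share of all genes that separate so was not counted. Clec5a differed by 0.69 in c-kit-positive cells (95% confidence interval 0.17 to 1.21), 0.70 in c-kit-negative cells (0.18 to 1.22) and 0.69 over both (adjusted p = 0.297 with limma), and among the alternatives run it passed only without leukaemia 85 (0.0233).

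Of the other Clec genes, Clec2d had 0.46 in c-kit-positive cells, where all 3 Dnmt3b-labelled values were above all 3 WT values, and 0.28 in c-kit-negative cells, where they overlapped. On the other side, Clec7a had -0.54 and -0.31 (95% confidence intervals -1.42 to 0.34 and -1.19 to 0.57) and Clec4e -0.48 and 0.19 in c-kit-positive and c-kit-negative cells. Clec2g had -0.28 in c-kit-negative cells. No Clec gene of the 24 passed in c-kit-positive cells (0.141% of all genes did) or over both fractions (0.0261%), while 3 (12.5%) and 6 (25%) of them had an unadjusted p under 0.05 with limma, beside 9.89% and 8.37% of all genes. In c-kit-negative cells 5 did (20.8%), beside 6.1% of all genes. The median difference of the 24 was 0.04 in c-kit-positive cells, 0.14 in c-kit-negative cells and 0.06 over both, beside 0.01, 0.00 and 0.01 for all genes.

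**Figure D5:**
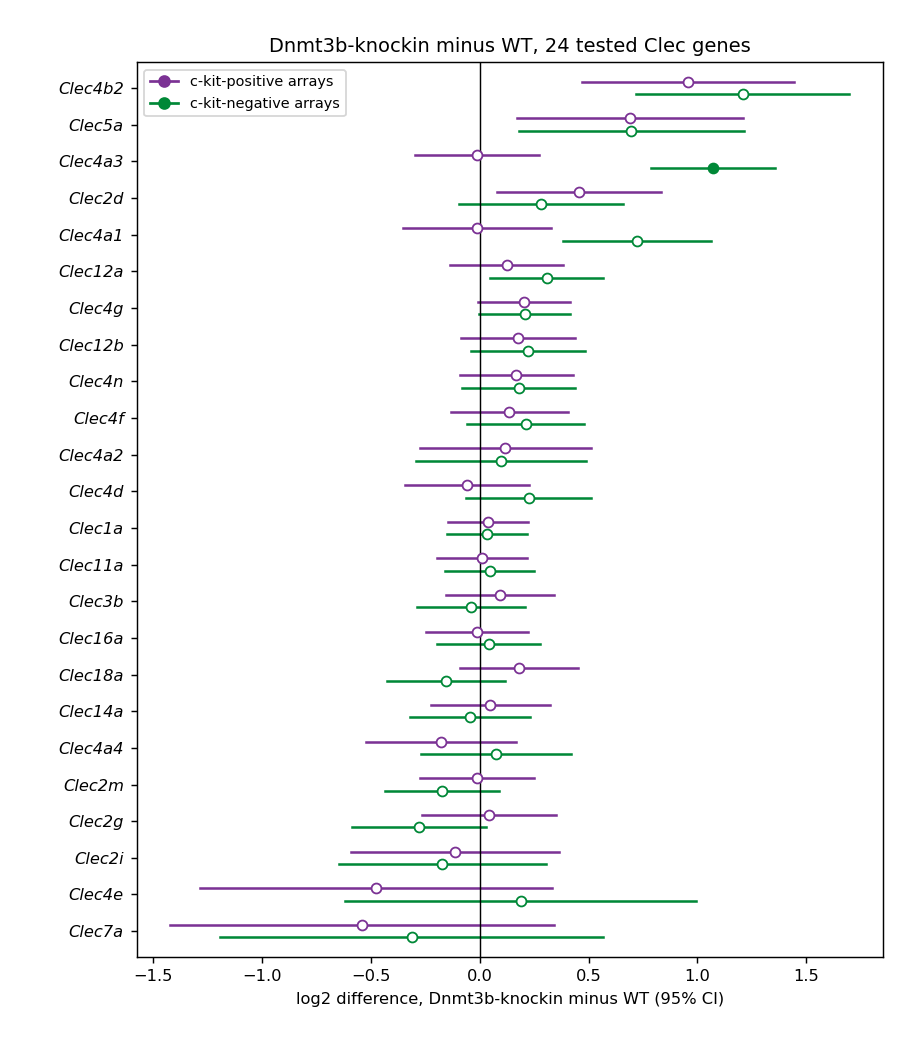
Log2 difference of Dnmt3b-labelled minus WT-labelled leukaemias for the 24 tested Clec genes, on c-kit-positive arrays (purple, upper line of each gene) and c-kit-negative arrays (green, lower line). Bars are 95% confidence intervals of the limma fit (3 arrays against 3), and the filled point passed an adjusted p of 0.05. Clec4a3 and Clec4a1 lie near 0 on c-kit-positive arrays and to the right of it on c-kit-negative arrays, while Clec4b2 and Clec5a lie to the right on both. All c-kit-positive values of Clec4a1 were below the filter value, so that its point there cannot show whether the labels differ.

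Whether the c-kit difference depended on the genotype label was tested as an interaction. No Clec gene passed, as no gene of the 19152 did (0%), with 2 Clec genes and 427 of all genes at an unadjusted p under 0.05 with limma. The 2 were Clec4a3 and Clec4a1. The interaction of Clec4a3, the step in the Dnmt3b-labelled leukaemias minus that in the WT-labelled, was -1.08 (95% confidence interval -1.49 to -0.68, adjusted p = 0.735). The steps were -2.04, -2.12 and -1.46 in leukaemias 81, 83 and 85, against -0.82, -0.85 and -0.70 in 73, 75 and 79, which did not overlap. Without leukaemia 85 it passed (adjusted p = 0.0314 with limma). The share of all genes that passed in that fit was not counted. For Clec4a1 the interaction was -0.73 (-1.22 to -0.26), with steps of -1.09, -1.71 and -1.08, against -0.49, -0.97 and -0.21. All c-kit-positive values of Clec4a1 lay below the filter value, so that the full size of its steps cannot be told.

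Among the signalling partners of these receptors, 33 of 38 listed genes were tested. Over both genotypes 4 were lower in c-kit-positive cells and 0 higher (median -0.16), beside 2.41% of all genes lower and 5.84% higher. Between the genotype labels 0 passed with limma, in c-kit-positive cells (3 at an unadjusted p under 0.05), in c-kit-negative cells (1) and over both (2). Of all genes, 9.89%, 6.1% and 8.37% had such an unadjusted p. The 4 lower genes were Fcer1g, the kinase gene Fgr, the inflammasome gene Nlrp3 and the cytokine gene Il1b. Fcer1g had log2 values of 10.48, 10.53 and 10.60 on the c-kit-positive arrays of leukaemias 81, 83 and 85, against 11.38, 11.10 and 11.05 on their c-kit-negative arrays. Fcer1g in leukaemias 73, 75 and 79 had 10.72, 11.04 and 10.84, against 11.04, 11.35 and 11.05. The adaptor gene of Clec4e and Clec4b2, it was 1.38-fold lower in c-kit-positive cells (log2 -0.46, adjusted p = 0.00725 with limma), the direction of Clec4e and opposite to Clec4b2. Il1b was 2.5-fold, Nlrp3 2.11-fold and Fgr 1.58-fold lower (adjusted p = 0.00381, 0.00555 and 0.0113 with limma). The other adaptor gene, Tyrobp, had -0.32 (adjusted p = 0.0643 with limma), and the downstream genes Syk and Card9 had 0.16 and 0.26 without passing.

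Of 44 tested genes of other C-type lectin domain proteins, 2 were lower in c-kit-positive cells and 0 higher (median -0.09). Of all genes 8.25% passed there, 2.41% as lower. The 2 were Klra2, a gene of the Ly49 receptors (1.85-fold, adjusted p = 0.000914 with limma), and Colec12, a scavenger receptor gene (1.38-fold, adjusted p = 0.0301). Between the genotype labels 0 of that list passed with limma in either fraction or over both. At an unadjusted p under 0.05 were 3, 3 and 4, beside 9.89%, 6.1% and 8.37% of all genes. Of 7 tested genes of ligands, 2 were lower, Anxa1, which encodes an annexin bound by Dectin-1 (2.32-fold, adjusted p = 5.93e-05 with limma), and Vim, the vimentin gene (1.56-fold, adjusted p = 0.0112).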

How the data were processed

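Total RNA of the 12 samples was labelled for Affymetrix whole-transcript arrays, per the labels' protocols. The deposited table holds log2 values for 41345 probe sets, made with RMA in Affymetrix Expression Console per the submitters' processing notes. Versions and the genome build are not given in the sources used here. That the scale is log2 was read from these notes and from how far the values reach, with no scanner files to set them against. Probe sets with exactly 1 symbol (23521; 1814 had several and 16010 none) were taken, and the one with the highest mean over 12 arrays stood for a gene. All 31 Clec genes matched a RefSeq gene. The number of arrays limits the precision.

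One limma model (version 3.58.1, R 4.3.3, statmod 1.5.0) was fitted to 19152 genes on 12 arrays with 4 group means. The genotype comparison over both fractions used leukaemia means, 3 against 3. Tests were two-sided, with Benjamini-Hochberg adjustment over all genes tested and a threshold of 0.05, and folds are 2 to the power of the log2 difference. The fit was also run on simulated data with independent arrays, which leaves out the pairing by leukaemia and is not used as support. After group means were removed, both arrays of a leukaemia correlated by 0.279 to 0.601, and the number, which the labels share, was used as a block in an alternative (a fixed term between fractions and in the interaction, a random one between genotypes). Alternatives varied the filter, scaling, moderation, arrays in the fit and the leukaemias. Taking the mean of probe sets could not alter a Clec gene, as each had 1. Named were Clec genes above the table median or past the threshold, those with the largest differences, and list genes past the threshold. Members, lists and tests were chosen with earlier results of these data known. No protein sequences were used here.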

Additional observations from a re-analysis of the deposited data

Results flagged for a closer look

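The c-kit difference of Clec18a had opposite signs under the genotype labels, although it passed under neither. Its c-kit-positive minus c-kit-negative difference was 0.54, 0.04 and 0.17 in leukaemias 81, 83 and 85, all above 0, against -0.03, -0.16 and -0.05 in 73, 75 and 79, all below 0. The interaction was 0.33 (95% confidence interval -0.05 to 0.72) and did not pass with limma (adjusted p = 1). Leukaemia 81 gave the largest of these differences. Such opposition in all 6 leukaemias was seen for 1 of the 24 tested Clec genes (4.17%) and for 1.71% of all genes tested.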

How the results depend on the processing

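The count of Clec genes past the threshold between c-kit fractions over both genotypes was 6, and 5 to 8 under the other settings, with 5 to 7 when each leukaemia was left out in turn. No difference that passed in any setting changed its sign in another. With the leukaemia number as a replicate block the count was 8 over both genotypes, 5 in place of 3 within WT-labelled leukaemias and 1 in place of 0 between the genotype labels over both fractions. These fits called 19.6%, 11% and 0.178% of all genes, against 8.25%, 0.768% and 0.0261% without the block. Within Dnmt3b-labelled leukaemias 5 passed, 3 with eBayes with trend and robust settings, and 2 in a fit to the 6 arrays compared, which holds fewer samples. Within these leukaemias Clec12a lost its call in both (adjusted p = 0.0626 and 0.0977 with limma), Clec4b2 in both (0.0539 and 0.0783), with no filter (0.0501) and with arrays centred on their medians (0.0649), and Clec4e in the fit to the 6 arrays (0.0653). Clec7a over both genotypes lost its call with trend and robust settings too (0.0671). A fit to the 6 arrays compared left 0 in place of 1 between the labels in c-kit-negative cells. Leaving out each leukaemia gave 2 to 5 within Dnmt3b-labelled and 0 to 3 within WT-labelled leukaemias, 0 to 2 between the labels in c-kit-negative cells, 0 to 2 over both fractions, 0 in c-kit-positive cells each time, and 0 to 1 for the interaction. The share of all genes that passed was counted only with and without the block. Whether counts under the other settings moved with that share can therefore not be told. The fit to the compared arrays alone gives no value for the interaction or for comparisons over both genotypes or fractions. Of 15 calls, 7 were kept under every alternative that gave them a value, namely Clec12a, Clec4b2, Clec4e, Clec4a1 and Clec4a3 over both genotypes and Clec4a1 and Clec4a3 within Dnmt3b-labelled leukaemias. Clec4a1 passed the filter only through c-kit-negative arrays, where it is high. It was not tested with the filter at the table median, where the counts were 5 over both genotypes and 4 within Dnmt3b-labelled leukaemias. The causes of the lost calls were not tested. Fits that left out leukaemias or arrays also held fewer samples, which was not separated from the part of the leukaemia left out.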

Other observations

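The probe set annotated to both Clec9a, a receptor of dead cells on cross-presenting dendritic cells, and Clec1b entered no comparison. Its log2 value was 5.72 to 6.10 over the 12 arrays.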
